A study of Mus musculus with 24 samples.

Results

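This account concerns how loss of 1 copy of Eif4e altered the response of mouse embryonic fibroblasts to transformation, as read in RNA on heavy polysomes. The 12 polysomal RNA arrays of the 24 arrays in the series were used. For each embryo and gene the untransformed log2 value was subtracted from the transformed one, and the mean of the 3 differences from Eif4e+/- embryos minus the mean of the 3 from wild-type (WT) embryos is called the interaction here. A positive interaction means that polysomal RNA after transformation stood higher, relative to before, in Eif4e+/- than in WT cells.

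The fibroblasts came from 6 embryos (E13.5), 3 WT and 3 Eif4e+/- (heterozygous, abbreviated Het). Each embryo gave an early passage untransformed culture and a matched culture transformed with Ras and Myc. Each culture was profiled as total RNA and as polysomal RNA, so the 4 polysomal groups (WT untransformed, WT transformed, Het untransformed and Het transformed) held 3 cultures each. All cells were grown in 10% serum and harvested in exponential growth, and all polysomal samples came from cells given cycloheximide at 100 µg/ml before a sucrose gradient of 10 to 50%. With 1 transformed culture per embryo, a difference between genotypes after transformation cannot be told apart from a difference between the 3 transformation events on each side. The vectors, the Ras gene used and the nature of the Eif4e allele are not given in the sources used here, and there was no arm that received an empty vector or only Ras or Myc.

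eIF4E binds the cap at the 5′ end of mRNAs and, with the scaffold eIF4G and the helicase eIF4A, forms eIF4F, which brings ribosomes to the message. An mRNA that is initiated often carries many ribosomes and sediments with heavy polysomes, so polysomal RNA reflects both how much of an mRNA a cell holds and how it is translated. Ras and Myc together transform primary fibroblasts, and loss of actin stress fibres and of the smooth-muscle-type contractile proteins is a known part of that change.

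Fibroblast markers were present in every culture. Vim, an intermediate filament protein of mesenchymal cells, had polysomal log2 values of 8.72 to 10.35 over the 12 arrays with a median of 9.51, the fibroblast surface protein Thy1 ranged from 4.37 to 10.56, and Col1a1, a collagen I chain, from 4.59 to 7.28. Pdgfra, a receptor of mesenchymal cells, was low at 2.88 to 4.20. Background was read from genes a cell cannot express, Xist where the embryo was male and Y-linked genes where it was female, which gave 28 polysomal values between 1.96 and 3.30. Sex is not in the sample labels. It was inferred from Xist and Y-linked genes in total RNA of the same cultures, which gave 2 male and 4 female embryos. Of 19 fibroblast markers tested, 13 lay above 3.30 on all 12 arrays. Among defining markers of other cell types, Ptprc (leukocytes) lay at 2.78 to 3.46, Cdh5 (endothelium) at 2.86 to 3.63, Cdh1 (epithelium) at 3.14 to 3.61 and Sox10 (neural crest) at 3.59 to 4.09. Ckm, a skeletal muscle enzyme, lay above background on all arrays at 4.34 to 4.82, and the macrophage genes Cd68, C3ar1 and Lyz2 reached 6.28, 4.78 and 4.70. The highest values of Cd68 and C3ar1 were both in transformed WT embryo 3, where Lyz2 was 2.51. Lyz2 was highest in untransformed Het embryo 2. Other markers also stood high in transformed WT embryo 3, such as the epithelial Krt19 at 7.49 and the adipocyte gene Fabp4 at 6.29. The log2 of the summed neural marker intensities was 7.94 to 10.37 in transformed WT cultures and 8.36 to 8.74 in untransformed WT cultures. For the epithelial markers it was 7.53 to 8.90 and 7.38 to 7.45. Markers above 3.30 on all 12 arrays numbered 2 of 19 for macrophages and leukocytes, 5 of 16 for endothelium, 6 of 20 for neural cells, 6 of 12 for epithelium, 7 of 15 for skeletal muscle, 6 of 12 for cartilage and bone and 4 of 9 for adipocytes. Their part in the results was not tested. In such bulk cultures, fewer cells of a type and less RNA per cell cannot be told apart.

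The spread of log2 values over probe sets differed between polysomal arrays, from an SD of 1.15 to 1.44, against 1.71 to 1.81 in total RNA. In WT embryo 1 the SD was 1.15 before and 1.39 after transformation, and in WT embryo 2 it was 1.31 and 1.42. In WT embryo 3 it went the other way, from 1.44 to 1.25. The Het arrays had SDs of 1.41, 1.34 and 1.28 before and 1.40, 1.28 and 1.37 after transformation. The per-embryo differences of WT embryo 3 had a median correlation across genes of 0.01 with those of the other WT embryos, while the same measure was 0.32 for WT embryo 1, 0.31 for WT embryo 2, and 0.56, 0.53 and 0.60 for the Het embryos. Genes are not independent replicates, so these correlations only describe the arrays. WT embryo 3 thus stood apart from the other WT embryos. Its median correlation with the Het embryos was 0.39, beside 0.54 and 0.51 for WT embryos 1 and 2. Het embryo 2 had 0.28 with the WT embryos. Among the polysomal arrays, untransformed WT embryo 1 had the lowest median correlation with the others, 0.90.

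**Figure D1:**
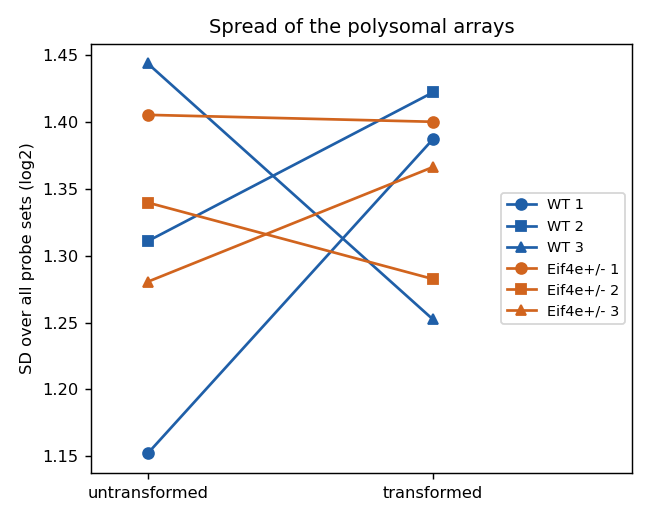
SD of log2 values over all probe sets for each polysomal array, by embryo, before and after transformation (log2 units). WT embryo 1 goes from 1.15 to 1.39 and WT embryo 3 from 1.44 to 1.25, while the Het embryos stay between 1.28 and 1.41.

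Across 14830 genes tested, no gene passed in either direction. With limma and Benjamini-Hochberg adjustment, 0 genes (0%) had an adjusted p under 0.05, and the smallest adjusted p was 1.00. At an unadjusted p under 0.05 there were 314 genes (2.12%), of which 129 (0.87%) had a positive and 185 (1.25%) a negative interaction. Fits with a trended and robust prior, with array weights or without the embryo block also called 0 genes. For 540 genes (3.64%) all 3 Het differences lay above all 3 WT differences, and for 502 (3.39%) all lay below. Positive interactions made up 47.1% of genes, with a median of -0.02. The median standard error of an interaction was 0.31 on the log2 scale in polysomal RNA and 0.14 in total RNA. An exact permutation of the 6 differences of 1 gene cannot reach a two-sided p below 0.1. Complete separation of the genotypes, in either direction, is the outcome with that p, so separation alone does not support a gene. The share of genes at an unadjusted limma p under 0.05, 2.12%, was itself below 0.05. The genes described below are therefore those with the largest interaction or the smallest p by rank, and each is a value that did not pass.

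Among omissions of a single embryo, the count of genes near the threshold changed most with WT embryo 3. Without it, 2140 genes had an unadjusted p under 0.05 and 17.2% of those had a positive interaction, against 314 and 41.1% with all embryos. The smallest adjusted p then was 0.107, and still 0 genes were called. Array weights, computed on the per-embryo differences and so per embryo rather than per array, gave 1087 genes, of which 26.9% were positive.

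Several of the wider gaps between the genotypes lay in genes of the contractile apparatus, and Cnn1 had the largest positive interaction among the named genes. Cnn1 (calponin 1), Tagln (transgelin, an actin-binding protein), Myl9 (a regulatory light chain of myosin II) and Acta2 (smooth muscle α-actin) were lower after transformation in every embryo, and less so in every Het than in any WT embryo. Polysomal RNA of untransformed cells was 39.1-fold that of transformed cells for Tagln in WT and 9.82-fold in Het, and 52.8-fold and 15.4-fold for Myl9. These genes are bound through CArG boxes by serum response factor (SRF), which works with myocardin-related cofactors that sense free actin.

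In RefSeq's GRCm38.p6 promoter table, 3 of the 4 genes had an entry. The 250 bases before the gene start are printed below for those genes, because CArG boxes are the known SRF element and the difference was lower in WT than in Het embryos in each of these genes. Capitals mark a match to the 10-base CArG box, exact or with 1 mismatch. The motif is its own reverse complement, so the search of the printed strand covers both strands.
Myl9, chr2:156775214-156775463, plus strand: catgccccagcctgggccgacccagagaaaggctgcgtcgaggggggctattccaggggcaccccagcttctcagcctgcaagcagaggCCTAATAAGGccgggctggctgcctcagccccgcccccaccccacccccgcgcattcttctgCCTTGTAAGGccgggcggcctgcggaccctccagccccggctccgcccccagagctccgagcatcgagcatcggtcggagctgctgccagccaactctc
Cnn1, chr9:22099003-22099252, plus strand: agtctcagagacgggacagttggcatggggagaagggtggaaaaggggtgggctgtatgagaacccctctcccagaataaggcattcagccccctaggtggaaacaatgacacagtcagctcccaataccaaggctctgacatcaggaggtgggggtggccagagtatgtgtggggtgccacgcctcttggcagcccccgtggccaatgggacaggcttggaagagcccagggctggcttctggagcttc
Acta2, chr19:34255374-34255623, minus strand: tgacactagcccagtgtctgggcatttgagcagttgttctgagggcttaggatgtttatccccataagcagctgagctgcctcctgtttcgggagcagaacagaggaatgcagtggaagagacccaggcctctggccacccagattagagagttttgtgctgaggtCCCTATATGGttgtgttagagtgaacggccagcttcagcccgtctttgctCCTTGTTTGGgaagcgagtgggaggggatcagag
The Myl9 window held 1 exact match, starting 161 bases before the gene start, and 1 match with a mismatch at 99 bases. The Acta2 window held 2 matches with a mismatch, at 84 and 34 bases. The Cnn1 window held none. Among 32851 promoter windows of this length, 1.47% held an exact match and 18.6% held a match with up to 1 mismatch. A match is a description of these letters and not a site shown to be in use.

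Tagln had untransformed log2 values of 9.36, 8.59 and 9.93 in WT embryos 1 to 3 and 9.49, 9.93 and 9.07 in Het embryos 1 to 3. After transformation they lay between 3.97 and 4.03 in the 3 WT cultures and were 6.45, 6.80 and 5.35 in Het. Before transformation the genotypes overlapped, and after it every Het culture lay above every WT culture. The transformed minus untransformed differences were -5.35, -4.56 and -5.96 in WT and -3.04, -3.13 and -3.72 in Het, an interaction of 2.00 ± 0.39 (SE, n = 3 embryos per genotype, 95% confidence interval 1.09 to 2.90).

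Myl9 had untransformed values of 10.36, 10.37 and 10.72 in WT and 10.68, 10.77 and 10.02 in Het. The transformed values were 4.59, 4.33 and 5.36 in WT and 6.52, 7.50 and 5.61 in Het. As for Tagln, the genotypes overlapped before transformation and separated after it. Its differences were -5.77, -6.04 and -5.36 in WT and -4.17, -3.27 and -4.41 in Het, an interaction of 1.78 ± 0.36 (95% interval 0.95 to 2.61).

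Cnn1 went from 9.61, 9.46 and 10.15 to 3.06, 3.78 and 5.72 in WT, and from 10.01, 9.93 and 9.59 to 7.31, 7.09 and 5.59 in Het. The transformed values overlapped narrowly, with Het embryo 3 below WT embryo 3, although the 3 Het differences lay above the 3 WT differences. Those differences were -6.55, -5.68 and -4.43 in WT and -2.70, -2.83 and -3.99 in Het, an interaction of 2.37 ± 0.57. The value for transformed WT embryo 1 lay within the background range, so the WT decrease there may be understated.

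Acta2 went from 11.45, 11.07 and 11.86 to 5.90, 5.81 and 7.30 in WT, and from 11.74, 11.75 and 11.40 to 8.16, 8.81 and 7.20 in Het. Here too the transformed values of Het embryo 3 and WT embryo 3 crossed. The differences of -5.55, -5.26 and -4.56 in WT and -3.58, -2.94 and -4.20 in Het gave an interaction of 1.55 ± 0.40. In each of the 4 genes the same embryo, Het embryo 3, had the largest decrease among the Het embryos.

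Most other contractile genes had interactions near 0. Of 38 measured contractile and SRF target genes, 31 were lower after transformation in all 6 embryos, and 21 had a positive interaction (all genes 47.1%) with a median of 0.10 (all genes -0.02). The size of the interaction was under 0.5 in 32 of the 38. The 4 genes above were the only members with an unadjusted p under 0.05 (all genes 0.87% positive at that p). The other 34 had a median interaction of 0.02 with 17 positive and 17 negative values between -0.48 and 1.22.

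**Figure D2:**
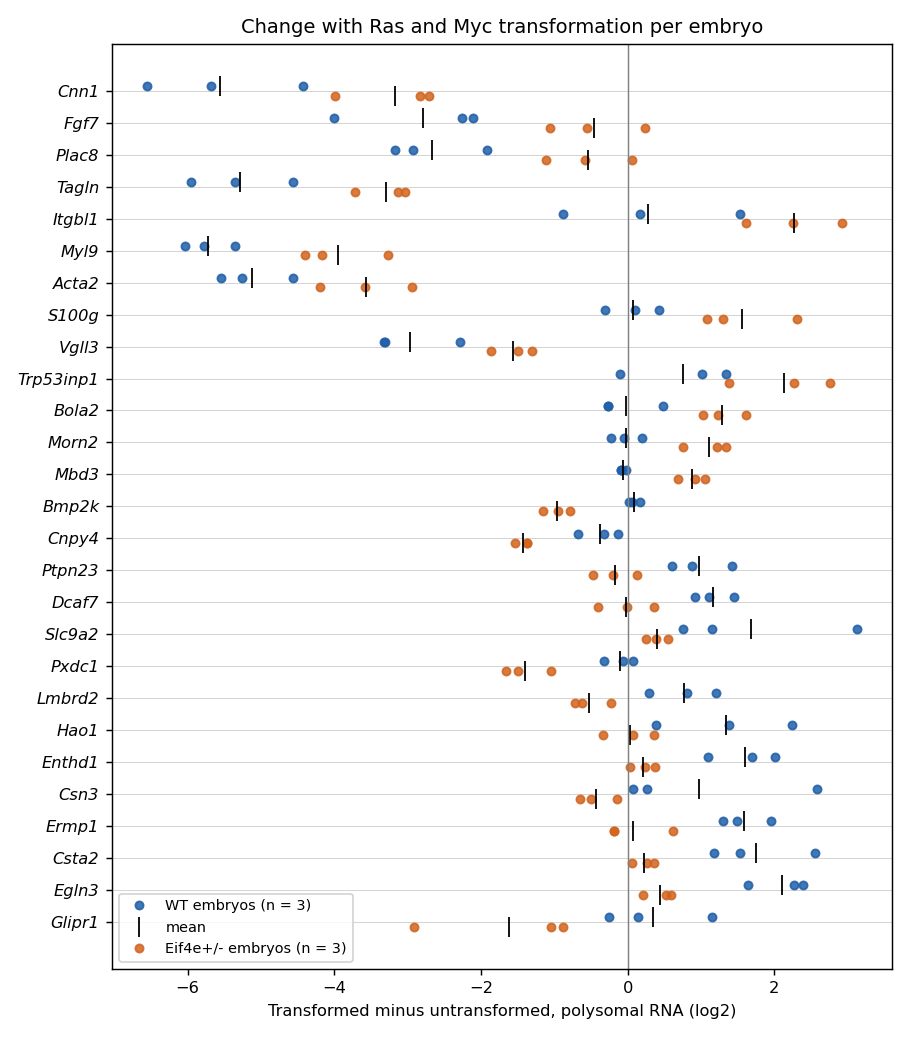
Transformed minus untransformed polysomal log2 value of each embryo for the genes named by rank, WT and Eif4e+/- embryos in separate colours, with a black tick at each mean of 3. For Tagln the WT embryos lie between -5.96 and -4.56 and the Het embryos between -3.72 and -3.04, and for Egln3 the WT embryos lie between 1.65 and 2.39 and the Het embryos between 0.21 and 0.59.

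The other genes with a positive interaction were of 2 kinds. Some were lower after transformation in each WT embryo, by more than in any Het embryo, and others were higher after transformation in each Het embryo, by more than in any WT embryo. Fgf7, a fibroblast-made growth factor for epithelial cells, had untransformed values of 7.28, 7.27 and 7.70 in WT and 7.26, 7.62 and 6.84 in Het, and transformed values of 3.27, 5.17 and 5.44 in WT and 6.71, 7.85 and 5.78 in Het. The untransformed values overlapped, and all transformed Het cultures lay above all transformed WT cultures. Its differences were -4.01, -2.11 and -2.26 in WT and -0.56, 0.23 and -1.06 in Het, an interaction of 2.33 ± 0.55. The value of transformed WT embryo 1 lay within the background range.

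Plac8, a small cysteine-rich protein, had differences of -3.18, -1.91 and -2.92 in WT and -1.11, 0.06 and -0.58 in Het, an interaction of 2.13 ± 0.43. Its untransformed values were 6.86, 8.09 and 7.95 in WT and 8.97, 7.64 and 6.88 in Het, and its transformed values were 3.68, 6.17 and 5.03 in WT and 7.85, 7.70 and 6.30 in Het. Again the genotypes overlapped before transformation and separated after it. Vgll3, a cofactor of the TEAD transcription factors, had differences of -3.31, -3.32 and -2.29 in WT and -1.50, -1.30 and -1.87 in Het, an interaction of 1.41 ± 0.35.

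Mbd3, a subunit of the NuRD chromatin complex, was 5.01, 4.80 and 4.75 before and 4.92, 4.78 and 4.67 after transformation in WT. In Het it was 4.57, 4.51 and 4.68 before and 5.62, 5.19 and 5.60 after. WT values were slightly lower after transformation in every embryo and Het values higher in every embryo, which was so for 133 genes (0.897%). The interaction of Mbd3 was 0.95 ± 0.24.

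Bola2, which takes part in iron-sulfur cluster handling, had differences of 0.48, -0.27 and -0.27 in WT and 1.23, 1.03 and 1.61 in Het (interaction 1.31 ± 0.31). Trp53inp1, a p53-induced stress gene, had differences of 1.02, 1.35 and -0.10 in WT and 1.39, 2.27 and 2.76 in Het (1.38 ± 0.48). Itgbl1, S100g and Morn2 had interactions of 1.99, 1.49 and 1.13, but at least 1 of their 4 group means lay within the background range, where levels cannot be told from background.

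On the negative side the smallest unadjusted limma p, 0.000424, belonged to Egln3, a prolyl hydroxylase that marks HIF-α for degradation and is itself induced by hypoxia. It was 3.02, 3.47 and 3.32 before and 5.41, 5.12 and 5.58 after transformation in WT, and 3.81, 3.22 and 3.32 before and 4.40, 3.42 and 3.84 after in Het. The untransformed values of both genotypes lay around background and overlapped, and every transformed WT culture lay above every transformed Het culture. Transformed WT cells stood 4.29-fold above untransformed ones and transformed Het cells 1.36-fold, an interaction of -1.66 ± 0.29 (SE). Because the WT starting level is at background, the WT increase may be understated.

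Enthd1, an ENTH domain gene, showed the same form. Its differences were 1.10, 1.70 and 2.01 in WT and 0.37, 0.03 and 0.23 in Het, an interaction of -1.39 ± 0.30. Ermp1, a metallopeptidase of the endoplasmic reticulum, had differences of 1.95, 1.50 and 1.30 in WT and -0.19, 0.62 and -0.18 in Het (-1.50 ± 0.32). Dcaf7, a WD-repeat adaptor protein, was 6.14, 6.18 and 6.75 before and 7.60, 7.29 and 7.67 after transformation in WT, and 7.22, 6.82 and 6.38 before and 6.81, 6.81 and 6.74 after in Het (-1.18 ± 0.29). All 3 genes were higher after transformation in each WT embryo.

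Other genes were lower after transformation in each Het embryo and had no common direction in the WT embryos. Pxdc1, a PX domain gene, was 5.68, 6.14 and 6.23 before and 5.62, 6.21 and 5.91 after transformation in WT, and 6.53, 6.18 and 5.82 before and 4.86, 4.69 and 4.78 after in Het. The transformed Het cultures lay below every other culture, and the interaction was -1.29 ± 0.27. Glipr1, a secreted protein of the CAP family, had the most negative interaction by size, -1.96 ± 0.59, with differences of -0.25, 1.15 and 0.14 in WT and -2.92, -1.04 and -0.89 in Het. Het embryo 1 sets part of that size: without it the interaction was -1.31.

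The remaining negative genes were Bmp2k (-1.05), Cnpy4 (-1.05), Ptpn23 (-1.15), Lmbrd2 (-1.30), Slc9a2 (-1.28), Hao1 (-1.31), Csn3 (-1.41) and Csta2 (-1.52). In Bmp2k, Lmbrd2 and Csn3 every WT difference was above 0 and every Het difference below it, as in 80 genes of all tested (0.539%). Csn3, Csta2, Hao1, Slc9a2 and Egln3 had at least 1 group mean within the background range. Csn3, which encodes the milk protein κ-casein, rested on a single culture: transformed WT embryo 3 stood at 5.64 while the other 11 polysomal values lay between 2.58 and 3.42, and without that embryo the interaction was -0.60. Slc9a2, a sodium-proton exchanger, likewise rested on WT embryo 2 and was -0.56 without it.

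**Figure D3:**
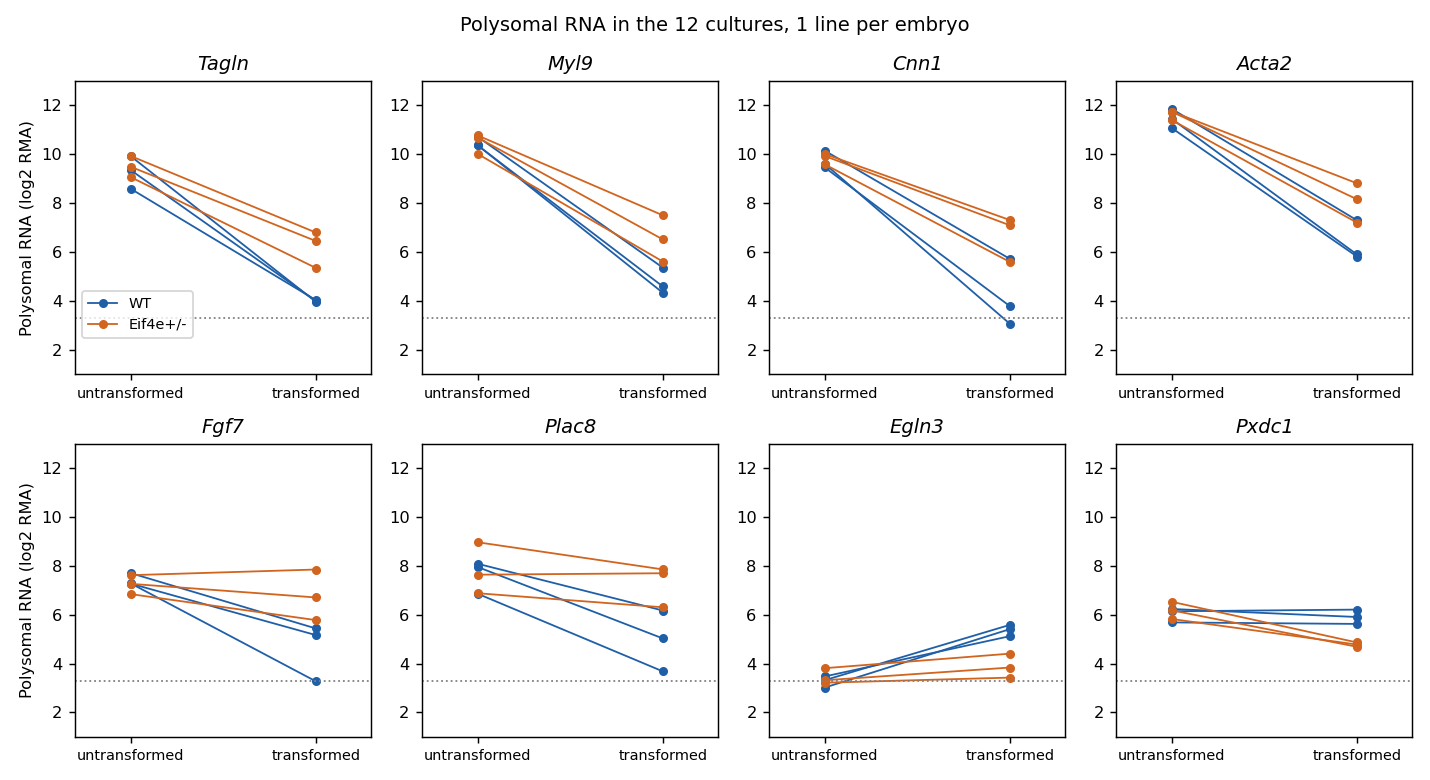
Polysomal log2 value of each culture for leading genes, untransformed and transformed values of the same embryo joined by a line, WT and Eif4e+/- in separate colours. The dotted line is the highest background value, 3.30. For Tagln the untransformed cultures overlap between genotypes, while the transformed WT cultures lie at 3.97 to 4.03 and the transformed Het cultures at 5.35 to 6.80.

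The rule took for each direction the 10 smallest p and the 10 largest interactions among genes with separate differences, which gave 13 genes with a positive and 14 with a negative interaction. They were chosen on this comparison, so their polysomal size and sign are descriptions. In 12 of the 13 and in 12 of the 14 the gap between genotype means was wider in transformed than in untransformed cells.

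Total RNA of the same cultures gives a second reading of these genes, on separate arrays but not from separate cells. Over all genes, limma with Benjamini-Hochberg adjustment called 0 genes (0%) for the interaction in total RNA, with a smallest adjusted p of 0.81 and 723 genes (4.88%) at an unadjusted p under 0.05. The total RNA interaction was 1.96 for Tagln, 1.76 for Myl9, 1.67 for Acta2 and 1.49 for Cnn1, beside 2.00, 1.78, 1.55 and 2.37 in polysomal RNA. Cnn1 had a smaller value in total RNA, while those of Tagln, Myl9 and Acta2 were of similar size in both fractions. Values of similar size were also found for Plac8 (1.77 beside 2.13), Itgbl1 (2.06 beside 1.99), Egln3 (-1.50 beside -1.66), Pxdc1 (-1.09 beside -1.29) and Csta2 (-1.30 beside -1.52). Of the 13 positive genes, 9 had an unadjusted p under 0.05 in total RNA with the same sign (all genes 2.6%), and of the 14 negative genes 10 did (all genes 2.28%).

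For other genes little of the polysomal difference was found in total RNA. Mbd3 had 0.03 ± 0.11 in total RNA beside 0.95 in polysomal RNA, Morn2 0.08 beside 1.13 and Bola2 0.38 beside 1.31. On the negative side Dcaf7 had -0.07 beside -1.18, Ptpn23 -0.11 beside -1.15 and Cnpy4 -0.15 beside -1.05. The interaction in polysomal minus total values, which the series description uses as translational efficiency, was 0.92 ± 0.27 for Mbd3, 1.06 ± 0.31 for Morn2 and -1.11 ± 0.30 for Dcaf7. For Fgf7 it was 1.20 ± 0.36 and for Cnn1 0.88 ± 0.33. Limma with Benjamini-Hochberg adjustment called 0 genes (0%) for this difference, and 289 (1.95%) had an unadjusted p under 0.05. None of the genes was thus shown to differ between the fractions.

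**Figure D4:**
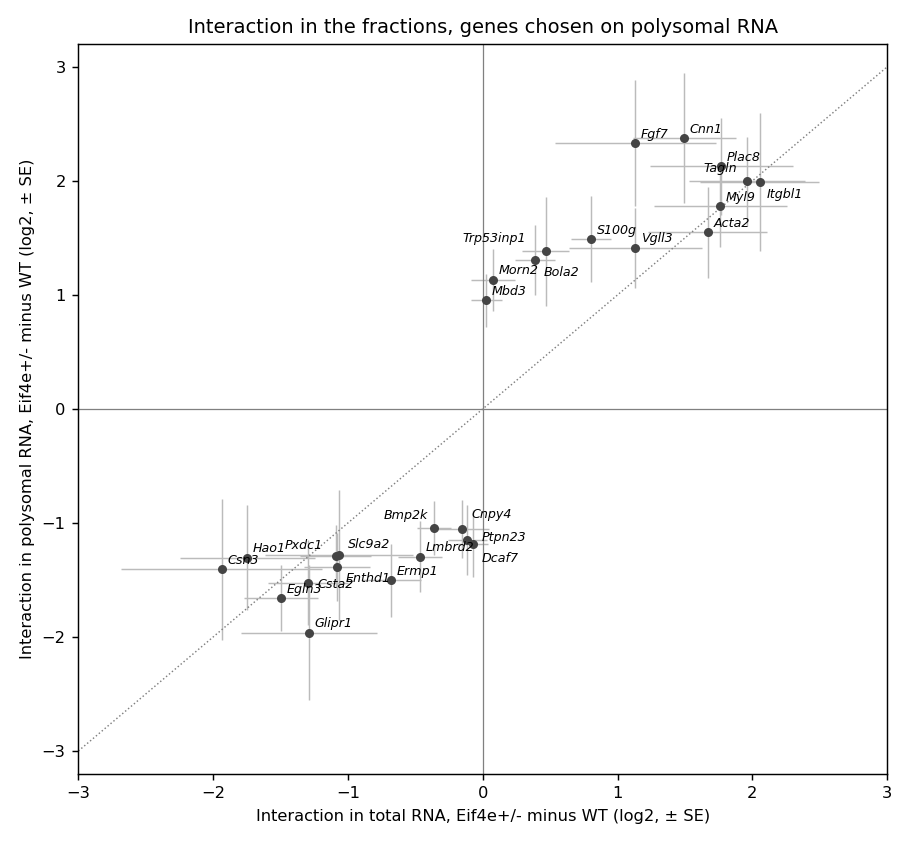
Interaction in polysomal RNA (vertical axis) against total RNA (horizontal axis) for the named genes, log2 units with SE bars, dotted line of equal values. Tagln, Myl9, Acta2, Egln3 and Pxdc1 lie near the line, while Mbd3, Morn2, Dcaf7 and Ptpn23 lie near 0 on the total RNA axis.

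All 10 tested eIF4F subunits and paralogs, of 12 in the list, had negative interactions (all genes 52.9% negative). The median was -0.28, with values from -0.74 to -0.03. None had an unadjusted p under 0.05. Eif4g1 and Eif4a1 were not among the genes tested. All 4 group means of Eif4e1b lay within the background range, so its sign cannot be read. Eif4e itself went from 4.19, 3.92 and 4.09 to 4.92, 5.47 and 4.68 in WT and from 3.67, 4.01 and 3.88 to 4.65, 3.87 and 4.96 in Het. It was higher after transformation in 5 of 6 embryos, the exception being Het embryo 2. Its interaction was -0.32 ± 0.41 (95% interval -1.27 to 0.64), and the sign turned to 0.07 without Het embryo 2. Eif4b and Eif4h, which stimulate the eIF4A helicase, had -0.74 ± 0.56 (-1.45 without WT embryo 3 and -0.35 without WT embryo 1) and -0.64 ± 0.32, and the helicase Eif4a2 had -0.73 ± 0.45.

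The signs of this list follow the WT embryos unevenly. The median transformed minus untransformed difference of the 10 genes was 0.78, 0.45 and -0.41 in WT embryos 1 to 3 and -0.04, -0.37 and -0.05 in the Het embryos. WT embryo 3 thus lay opposite to the other WT embryos and below all Het embryos. Without it the median interaction of the list was -0.62, and without WT embryo 1 it was -0.13. In total RNA the median was -0.08, with 3 of 10 positive (all genes 53.5%).

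Other parts of the translation machinery were read the same way. Of 35 other translation factors, 24 were negative with a median of -0.23, and 1 had an unadjusted p under 0.05 (all genes 1.25% negative at that p), Eif3h (-0.93 ± 0.32), an eIF3 subunit with differences of 1.08, 1.10 and 0.13 in WT and -0.06, -0.29 and -0.12 in Het. Of 15 mRNAs with a terminal oligopyrimidine (TOP) start other than ribosomal proteins, which are controlled through mTOR, 14 were negative with a median of -0.31. The 22 cytosolic ribosomal proteins tested, of 79 in the list, had a median of 0.09 with 13 positive. The 22 regulators of eIF4E and poly(A)-binding proteins had a median of -0.03, from Pabpc1 at -0.71 to Paip1 at 1.20. Without WT embryo 3 the median of that list was -0.34 and Paip1 was 0.51, and without WT embryo 1 the median was 0.16. Leaving out WT embryo 3 gave medians of -0.71 for the translation factors, -0.81 for the TOP mRNAs and -0.14 for the cytosolic ribosomal proteins. The translation factor median turned to 0.053 without WT embryo 1 or without Het embryo 2. The TOP and translation factor medians were -0.05 and -0.01 in total RNA.

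The 30 mRNAs reported elsewhere as eIF4E-sensitive were divided, 16 positive and 14 negative with a median of 0.07, which was -0.14 without WT embryo 3. An unadjusted p under 0.05 with a negative interaction was found in 4 (all genes 1.25%), and with a positive one in 0 (all genes 0.87%). The 4 were Rrm2 (-1.20), a ribonucleotide reductase subunit, Birc5 (-0.89), the mitotic protein survivin, Fth1 (-0.89), the ferritin heavy chain, and the glucose transporter Slc2a1 (-0.76). Fth1 went from 5.45, 6.05 and 6.25 to 7.04, 7.50 and 8.56 in WT and from 5.75, 5.94 and 5.52 to 6.41, 7.14 and 6.33 in Het. It was higher after transformation in all 6 embryos, by more in each WT than in any Het embryo. Its total RNA interaction was -0.03 ± 0.14.

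Proliferation genes leaned negative. Of 45 genes of G2 and mitosis, 43 had a negative interaction (all genes 52.9%) with a median of -0.31, and 2 had an unadjusted p under 0.05 (all genes 1.25% negative at that p), the condensin subunit Ncapd2 (-1.11 ± 0.37) and Birc5. Of 45 genes of S phase and replication, 37 were negative with a median of -0.27, again with 2 under that p, Rrm2 and Uhrf1 (-0.77), a factor that maintains DNA methylation. The 25 replication-dependent histone genes had a median of -0.07, which turned to 0.053 with arrays scaled to equal SD, and 1 was under that p (H2bc21, -1.10). The 18 G1 cyclins, CDKs and CDK inhibitors had a median of -0.10. Ncapd2 had differences of 0.42, 0.94 and -0.28 in WT and -0.42, -1.17 and -0.67 in Het. The Het minus WT median of the G2 and mitosis list was 0.32 in untransformed and 0.02 in transformed cells. The embryos of a genotype did not share this pattern. Untransformed list means were 4.40, 4.17 and 4.95 in WT embryos 1 to 3 and 4.96, 4.78 and 4.85 in Het. Transformed list means were 4.88, 4.99 and 4.30 in WT and 4.96, 4.36 and 4.80 in Het. WT embryo 3 thus lay among the Het values before transformation and below them after it.

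Here WT embryo 3 again stood apart from the other WT embryos. The median difference of the G2 and mitosis genes was 0.43, 0.81 and -0.67 in WT embryos 1 to 3 and 0.03, -0.36 and 0.05 in Het embryos 1 to 3. For the S phase genes the medians were 0.59, 0.57 and -0.57 in WT and 0.02, -0.50 and 0.07 in Het. The WT embryos therefore spanned the Het embryos on both sides. Without WT embryo 3 the median interaction was -0.83 for G2 and mitosis and -0.64 for S phase. Without WT embryo 2 the medians were -0.053 and -0.044. In total RNA 2 of the 45 G2 and mitosis genes were positive, with a median of -0.21. The polysomal SD was higher after transformation in WT embryos 1 and 2 and lower in WT embryo 3. A link between the SD and these medians was not tested. With arrays scaled to equal SD the G2 and mitosis median interaction was -0.31 and the S phase median -0.25.

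Ribosome biogenesis genes driven by MYC showed the same split. Of 49 genes, 36 were negative with a median of -0.15, and the medians by embryo were 1.06, 1.23 and -0.79 in WT and 0.66, -0.07 and 0.32 in Het. Leaving out WT embryo 3 gave a list median of -0.77. Leaving out embryo 1 of that genotype gave 0.10, and embryo 2 gave 0.19. Nop10, a small H/ACA ribonucleoprotein, was the only member with an unadjusted p under 0.05, at 0.59. Whether the array reads the introduced Myc as well as the cells' own is not given in the sources used here. Myc values went from 7.70, 6.89 and 8.26 to between 5.89 and 6.54 in WT and from 8.26, 7.71 and 7.91 to 6.66, 6.79 and 5.98 in Het, an interaction of -0.01 ± 0.51. The 23 Myc and Ras genes with their partners had a median of 0.07, and the 37 genes of RAS-ERK output and immediate early response a median of -0.20 with 14 positive. Those were -0.023 and -0.41 without WT embryo 3.

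**Figure D5:**
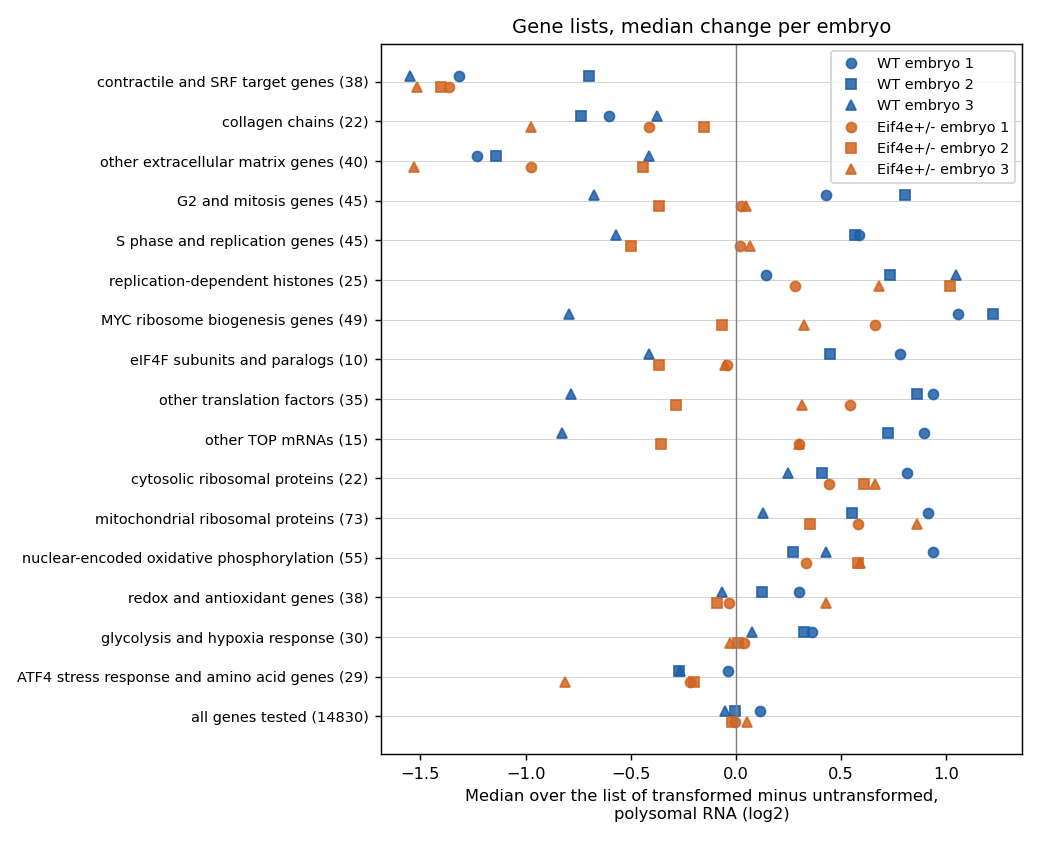
Median transformed minus untransformed polysomal log2 difference of gene lists in each embryo. For the G2 and mitosis list WT embryos lie at 0.43, 0.81 and -0.67 and Het embryos between -0.36 and 0.05.

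Among metabolic lists, the 73 mitochondrial ribosomal proteins had a median of 0.03 with 40 positive, and the 55 nuclear-encoded oxidative phosphorylation genes a median of 0.02 with 28 positive. Of 30 glycolysis and hypoxia genes, 21 were negative with a median of -0.28. An unadjusted p under 0.05 was found in 3, all negative (all genes 1.25%), which were Egln3, Slc2a1 and the phosphofructokinase Pfkp (-0.91). In total RNA the list median was -0.02.

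Of 38 redox and antioxidant genes, 24 were negative with a median of -0.14. An unadjusted p under 0.05 was found in 4, all negative (all genes 1.25%), which were Fth1, catalase (Cat, -0.67), the sulfiredoxin Srxn1 (-0.80) and the pentose phosphate enzyme Pgd (-0.80). Srxn1, a target of the oxidative stress factor NRF2, had differences of 1.51, 0.81 and 0.95 in WT and 0.19, 0.22 and 0.46 in Het. It was higher after transformation in every embryo, and every WT difference exceeded every Het difference. The total RNA interaction of Srxn1 was -0.72 ± 0.18. Of 29 ATF4 and amino acid genes, with a median of -0.18 (-0.34 without WT embryo 3), 1 was under that p, the serine synthesis enzyme Phgdh (-0.95), and of 26 cholesterol and fatty acid synthesis genes, with a median of -0.21, 1 was, the desaturase Scd2 (-1.14).

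Matrix genes had wide but overlapping differences. Bgn, the proteoglycan biglycan, had differences of -6.48, -3.23 and -2.36 in WT and -1.93, -1.20 and -2.95 in Het, an interaction of 1.99 ± 0.98. It was 0.76 without WT embryo 1, whose transformed value of 3.19 lay within the background range, and 2.82 without WT embryo 3. Lox, which crosslinks collagen, had -5.42, -5.17 and -2.59 in WT and -2.04, -2.29 and -4.17 in Het, 1.56 ± 0.83. It was 2.46 without WT embryo 3 and 1.05 without WT embryo 1. Transformed Lox values of 2.42 and 2.70 in WT embryos 1 and 2 lay within the background range, so those decreases may be understated. In both genes 1 Het embryo lay among the WT values. None of 22 collagen chains (median 0.13), 40 other matrix genes (median 0.11) or 24 matrix proteases and inhibitors (median -0.10) had an unadjusted p under 0.05. Among 39 growth factors and receptors 29 were positive with a median of 0.11, led by Fgf7. Of 39 TGF-β, BMP and SMAD genes 1 was under that p, the activin-binding protein Fst (0.98 ± 0.33).

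List medians this small often turned sign with the processing. Over the 17 alternative settings the sign was kept in all 17 for the eIF4F, TOP, G2 and mitosis, S phase, glycolysis and hypoxia, and ATF4 lists. It was also kept for the RAS-ERK, growth factor, endothelial, epithelial and skeletal muscle lists. For every other list it turned in at least 1 setting. Those include the contractile, collagen, other matrix, matrix protease, G1, histone, Myc and Ras partner, ribosome biogenesis and cytosolic ribosomal protein lists. They also include the eIF4E regulator, other translation factor, eIF4E-sensitive, mitochondrial ribosomal protein, oxidative phosphorylation, redox and cholesterol lists. The p53, interferon, chemokine, TGF-β, imprinted, fibroblast and macrophage lists turned as well. Lists for stress and immune programs stood near the level of all genes. The 30 interferon response genes had a median of -0.02, the 22 chemokines and interleukins 0.00 and the 25 p53 targets 0.07, which was -0.22 without WT embryo 3. Among 21 imprinted growth genes the amino acid transporter Slc38a4 had -1.26 ± 0.36 and the zinc finger gene Plagl1 0.83 ± 0.32. Slc38a4 had differences of 0.19, -0.74 and -0.61 in WT and -1.22, -1.56 and -2.17 in Het. Of the 8 marker lists, fibroblast genes had a median of -0.12 over 19 genes and macrophage and leukocyte genes -0.13 over 19, and the other 6 lay between -0.04 and 0.09.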

How the data were processed

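Polysomal and total RNA of 12 cultures had been hybridised to Affymetrix mouse gene arrays. The authors deposited 1 log2 intensity per probe set and array, computed with RMA according to the submitters' processing notes and the series description. Its version, the chip definition and any filter on probe sets are not given in the sources used here. Mean log2 values per array were 3.78 to 3.79 in polysomal and 7.46 to 7.50 in total RNA, so each fraction had its own level and differences between fractions have no absolute scale. The number of arrays limits the precision.

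Of 25668 probe sets, 20777 had 1 gene symbol in the platform annotation, 232 had several and 4659 none, and the last 2 classes were not used. For 564 of the 19661 genes with more than 1 probe set the brightest was taken. Genes above an array's 40th percentile on at least 3 of the 24 arrays were kept, which left 14830.

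The 6 differences per gene were compared with limma 3.58.1 (lmFit, eBayes) in R 4.3.3, which is the same as blocking on embryo (4 residual degrees of freedom), and p-values were adjusted over all genes by Benjamini-Hochberg. A gene was called at an adjusted p under 0.05. The labels match both states by embryo, and this gives the pairing. Deviations of same-embryo cultures from their group means correlated at -0.438 to 0.062 in polysomal RNA and at -0.058 to 0.219 in total RNA, so in polysomal RNA the pairing rests on the labels. The script was tested on simulated data.

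Named genes were, among those with separate differences, the 10 with the smallest p and the 10 with the largest interaction in each direction, up to 4 leading members of each of 37 gene lists, the eIF4F members and Myc. The genes and lists were chosen with earlier results of these data known, so no p over a list is given and lists are described by counts and medians. Promoter windows came from RefSeq, GRCm38.p6. Alternatives covered the block, the prior, array weights, normalization, filters, probe set choice and leaving out each embryo.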

Additional observations from a re-analysis of the deposited data

Results flagged for a closer look

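In 11 of the named genes every WT embryo went one way after transformation and every Het embryo the other in polysomal RNA. WT values were lower and Het values higher after transformation for Mbd3 (interaction 0.95), the bone matrix gene Dmp1 (0.74), the skeletal muscle troponin Tnnt1 (0.57), Sox5 (0.49), the interferon regulator Irf7 (0.42) and the lipid droplet protein Plin1 (0.40). WT values were higher and Het values lower for Csn3 (-1.41), Lmbrd2 (-1.30), Bmp2k (-1.05), the eIF3 subunit Eif3h (-0.93) and Angel1 (-0.35). The limma interaction test of the difference gave an adjusted p of 1.00 for each, so it did not pass. Some of the differences were close to 0, such as -0.02 for Mbd3 and 0.02 for Bmp2k in a WT embryo. All 4 group means of Irf7 lay within the background range, so its signs cannot be read, and 3 group means of Csn3 lay there too. Such opposed signs occurred in 133 genes (0.897%) with Het up and in 80 genes (0.539%) with WT up.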

How the results depend on the processing

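In every setting run, limma called 0 genes in the polysomal, total and polysomal minus total interactions. The count at an unadjusted p under 0.05, 314 with all embryos, was 1087 with array weights and 209 with a 60th percentile filter, and it ranged from 185 (without Het embryo 2) to 2140 (without WT embryo 3) when 1 embryo was left out. Leaving out WT embryos 1 and 3 together, chosen after seeing the data, gave 1697. The fit with no replicate block, which drops the pairing, gave 353 such genes and 0 called. The share with a positive interaction was 41.1% with all embryos, 33.2% with arrays centred on the median and 26.9% with array weights. Leaving out WT embryo 3 gave 17.2%, WT embryo 1 58.4% and Het embryo 1 54.5%.

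Among the genes named by the rule, 13 turned sign in at least 1 setting. Eif4e3 (-0.03) was 0.15 with array weights, 0.31 without WT embryos 1 and 3, and between -0.20 and 0.15 with 1 embryo left out. Myc (-0.01) was 0.091 after quantile normalization, 0.14 with arrays scaled to equal SD, and between -0.40 and 0.55 with 1 embryo left out. Over the same omissions Eif4e ranged from -0.54 to 0.073, Eif4e1b from -0.60 to 0.18 and Eif4e2 from -0.63 to 0.31. Krt19 (-0.83) ranged from -1.46 to 0.38, Rplp1 (0.28) from -0.054 to 0.59, Surf6 (-0.51) from -0.97 to 0.0028 and Cidec (0.16) from -0.014 to 0.40. Without WT embryos 1 and 3 together, Cd68 was 0.40 (negative with all embryos), Sox2 (1.07) was -0.53, Krt19 was 0.43, Cldn6 (0.81) was -0.29, Cidec was -0.23 and Il34 (-0.80) was 0.015. The cause of these shifts was not tested. Levels near background, up to 3.30, limit what can be read for the lowest genes.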
